A study of Mus musculus with 24 samples.

Results

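Sox genes encode transcription factors that bind DNA through an HMG box like that of SRY, and 10 of them were examined by name in the supporting cells of the mouse gonad: Sox8, Sox9 and Sox10 of the SoxE group, Sox4 and Sox11 (SoxC), Sox5 and Sox6 (SoxD), Sox2 (SoxB1), and Sox17 and Sox18 (SoxF). They are 10 of the 22367 protein-coding genes of the mm9 annotation. They were chosen by name and not by a filter on their marks, but with earlier results of these data known, those for Sox9 among them. All 10 were found in the annotation. For each gene the marks were read at the transcription start site (TSS) ± 2 kb, over the gene body and in the flanks, and for Sox9 also over the 1 Mb upstream.

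The study profiled H3K4me3 and H3K27me3 by ChIP-seq, with total H3 as input, in 4 populations sorted from pooled gonads of embryos with a C57BL/6 x CD1 background. XY and XX progenitor cells were taken at E10.5 from males and females carrying SF1-eGFP, a reporter that marks gonadal somatic cells. Sertoli cells were taken at E13.5 from Sox9-CFP males, and pregranulosa cells (granulosa cells in the sample labels) at E13.5 from females carrying TESM-CFP, a reporter driven by a mutated copy of a Sox9 enhancer. Each of the 24 samples is 1 of 2 replicates of an antibody and population, and each of the 8 deposited peak lists joins both replicates of 1 mark in 1 population. No population carried a knockout. The Sertoli gate itself rests on Sox9, so the state of Sox9 in those cells and the sort cannot be told apart.

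H3K4me3 is deposited by Trithorax-group methyltransferases and sits at the starts of active or poised genes. H3K27me3 is deposited by Polycomb repressive complex 2, spreads over domains and accompanies silencing. A promoter with both marks is called bivalent, a state common at developmental regulators that are not yet, or no longer, used. In the XY gonad SRY and the nuclear receptor NR5A1 turn on Sox9, SOX9 keeps its own gene on, and Sox8 and Sox10 encode close relatives. In the XX gonad Sox9 is silenced.

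The lists record where a mark was called and carry no level, since their score column holds 1 value for every peak. A gene is therefore described by whether a listed region touches its TSS window (marked) and by how many bases the regions cover. There is no spread between replicates, no p-value compares populations, and a mark that is absent from a list was not called at that depth. The H3K4me3 lists held 37849 to 44349 regions and the H3K27me3 lists 9309 to 13313. Calling used 10.2, 49.3 and 31.1 M H3K4me3 tags for the XY progenitor, XX progenitor and Sertoli lists, and 6.47, 33.2 and 44.4 M H3K27me3 tags. The tag number for pregranulosa cells is not given in the sources used here. The labelled cell types were compared with their defining markers. In Sertoli cells 6 of 7 Sertoli markers, Sox9 among them, were H3K4me3-only, against 0 of 7 in pregranulosa cells, and Cyp26b1 had H3K27me3 alone. In pregranulosa cells 3 of 7 pregranulosa markers were H3K4me3-only (Wnt4, Rspo1 and Bmp2), against 0 of 7 in Sertoli. Foxl2, Fst and Irx3 were bivalent in pregranulosa cells, and Runx1 had H3K27me3 alone. H3K4me3 alone was found at 46.2% of all promoters in Sertoli and 45.9% in pregranulosa cells. These classes were read at the 5′ end of each gene only, and inner starts were not read. The study reports that Foxl2 loses H3K27me3 at its TSS and gene body in pregranulosa cells, which a window of this size does not resolve.

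H3K4me3 was nearly constant across the family and H3K27me3 separated its members. The TSS window carried H3K4me3 at 9 of the 10 genes in XY progenitor cells and at all 10 in XX progenitor, Sertoli and pregranulosa cells. Among all protein-coding promoters the shares were 64.2%, 66.0%, 64.9% and 66.3%. H3K27me3 was present at 8, 8, 4 and 7 of the 10 in XY progenitor, XX progenitor, Sertoli and pregranulosa cells, where 23.0%, 24.8%, 23.5% and 23.7% of all promoters had it. Both marks were present at 7, 8, 4 and 7 of the 10, beside 20.4%, 22.4%, 18.7% and 20.4% of all promoters. The exact 95% binomial interval of the share with H3K27me3 was 44.4% to 97.5% in XY progenitor and 12.2% to 73.8% in Sertoli cells, which covers counting error only. The family thus had 4 promoters with H3K27me3 in Sertoli cells against 8 in XY progenitor cells, while the share over all promoters differed by under 1 percentage point between these lists.

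Along the XY lineage, 4 promoters had H3K27me3 in progenitor cells and not in Sertoli cells: Sox5, Sox8, Sox9 and Sox10. Over all genes 5.21% had that change, or 22.6% of the promoters that carried the mark in XY progenitor cells, of which the family had 8. Along the XX lineage only Sox5 had H3K27me3 in progenitor cells and lacked it in pregranulosa cells, a change found at 4.44% of all promoters and at 17.9% of those marked in XX progenitor cells. With only the widest 75% of regions Sox5 had no H3K27me3 in either progenitor population, and these changes then counted 3 genes in the XY and 0 in the XX lineage. No promoter of the 10 had H3K27me3 at E13.5 without having it at E10.5 in the same lineage, which 5.71% of all promoters did in the XY and 3.29% in the XX lineage. The 10 genes sorted into 4 patterns. Sox8, Sox9 and Sox10 had H3K27me3 in every population but Sertoli cells, as did 1.69% of all promoters. Sox2, Sox6, Sox17 and Sox18 were bivalent in all 4 populations, as were 13.6%. Sox4 and Sox11 had H3K4me3 alone in all 4, as did 36.7%, and the Sox5 window had H3K27me3 in the progenitor cells of both sexes only. The 3 genes of the first pattern are the whole SoxE group. At E13.5, 3 promoters had H3K27me3 in pregranulosa cells and not in Sertoli cells (Sox8, Sox9 and Sox10), as did 5.01% of all promoters, and 0 of the 10 had the reverse, which 4.90% of all promoters did. XY and XX progenitor cells gave the same class at 9 of the 10 genes, with Sox10 as the exception, beside 90.2% of all promoters.

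Sox9 directs supporting cells to the Sertoli fate. It lies at chr11:112643538-112649074 on the plus strand, with its TSS at the first of these positions. The 200 bases before the TSS of Sox8 and Sox9 are shown from mm9, 5′ to 3′ on the strand of each gene and with CpG dinucleotides in capitals, because both windows carried H3K27me3 in the same 3 populations. The stretches are chr17:25707632-25707831 (minus strand) for Sox8 and chr11:112643338-112643537 (plus strand) for Sox9.
Sox8 promoter: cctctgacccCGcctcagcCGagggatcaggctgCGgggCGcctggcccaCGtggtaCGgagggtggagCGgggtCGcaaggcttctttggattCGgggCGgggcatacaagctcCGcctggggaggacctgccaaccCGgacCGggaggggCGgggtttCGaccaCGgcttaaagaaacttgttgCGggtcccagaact
Sox9 promoter: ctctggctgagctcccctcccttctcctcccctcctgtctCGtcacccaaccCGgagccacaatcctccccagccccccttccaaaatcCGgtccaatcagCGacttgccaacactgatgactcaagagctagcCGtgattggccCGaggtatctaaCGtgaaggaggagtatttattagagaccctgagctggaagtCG
The Sox8 stretch held 17 CpG dinucleotides and that of Sox9 held 8, while the 1001 bases around the TSS held 75 and 76.

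At Sox9 the H3K4me3 region covered the whole TSS window in all 4 populations. It was 6.30 kb wide in XY progenitor, 9.0 kb in XX progenitor, 8.16 kb in Sertoli and 7.01 kb in pregranulosa cells, and in each it was wider than at least 97.0% of the promoters that carried the mark. H3K27me3 ran from 10.8 kb upstream to 5.86 kb downstream of the TSS in XY progenitor cells and from 9.70 kb upstream to 5.64 kb downstream in XX progenitor cells. In pregranulosa cells it ran from 17.0 kb upstream to 9.53 kb downstream, 26.5 kb in all against 16.6 and 15.3 kb in the progenitor populations. These 3 regions covered the Sox9 body completely. In Sertoli cells no base of the window or the body was in an H3K27me3 region, and the nearest regions lay 145.5 kb upstream and 10.9 kb downstream. The downstream region was 54.4 kb wide, so that 44.7 kb of the 50 kb beyond the gene were covered in Sertoli cells, against 31.3 kb in pregranulosa, 11.4 kb in XY progenitor and 10.51 kb in XX progenitor cells. The body itself was covered by H3K4me3 over 77.3% in XY progenitor, 93.4% in XX progenitor, 99.3% in Sertoli and 68.7% in pregranulosa cells.

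Sox8 acts beside Sox9 in keeping Sertoli cells. It lies at chr17:25702837-25707631 on the minus strand. H3K4me3 covered 78.4% of its TSS window in XY progenitor, 92.7% in XX progenitor, 100% in Sertoli and 88.9% in pregranulosa cells. The region at the TSS was 5.81 kb wide in Sertoli cells and 3.14 to 3.71 kb in the other 3 populations. H3K4me3 also covered 87.5% of the Sox8 body in Sertoli cells, against 34.3% to 37.8% elsewhere, and 10.9 kb of the 50 kb upstream, against 4.01 to 4.79 kb. H3K27me3 covered the window completely in both progenitor populations and pregranulosa cells and was not listed there in Sertoli cells. It covered 62.2% of the body in XY progenitor, 80.2% in XX progenitor and 100% in pregranulosa cells, and none in Sertoli cells. Beyond the 3′ end the order differed: the 50 kb downstream held 11.3 kb of H3K27me3 in Sertoli cells and 8.43 kb in pregranulosa cells and none in the progenitor populations.

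Sox10, best known from neural crest and glia, lies at chr15:78985343-78994920 on the minus strand. It was the 1 gene of the 10 with a window that lacked H3K4me3. In XY progenitor cells the nearest H3K4me3 regions lay 26.9 kb upstream and 21.7 kb downstream, and the window had H3K27me3 alone, as had 2.66% of all promoters. H3K4me3 in XX but not in XY progenitor cells was found at 2.79% of all promoters. That H3K4me3 list was called from the fewest tags of those with a stated depth, and the part of depth in the missing call was not tested. In XX progenitor cells a 2.07 kb H3K4me3 region covered 51.8% of the window. In pregranulosa cells a 1.25 kb region began downstream of the TSS, narrower than all but 3.46% of marked promoters. In Sertoli cells the region was 9.22 kb wide and reached 6.54 kb upstream, wider than 99.5% of marked promoters. H3K27me3 covered the window in the 3 other populations, in regions of 10.3, 11.5 and 14.6 kb, and in Sertoli cells the nearest was 61.3 kb away. The run of classes of Sox10 over the 4 populations was shared by 3 of 22367 genes (0.0134%), Sox10 included. Other markers of neural crest and glia were read beside it. Erbb3, a receptor of glial precursors, was bivalent in both progenitor populations and pregranulosa cells and H3K4me3-only in Sertoli cells. S100b, a glial calcium-binding protein, had H3K4me3 alone in Sertoli cells and neither mark elsewhere. Foxd3, a neural crest factor, was bivalent in all 4 populations. The part of glial cells in the Sertoli gate in this result was not tested.

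**Figure D1:**
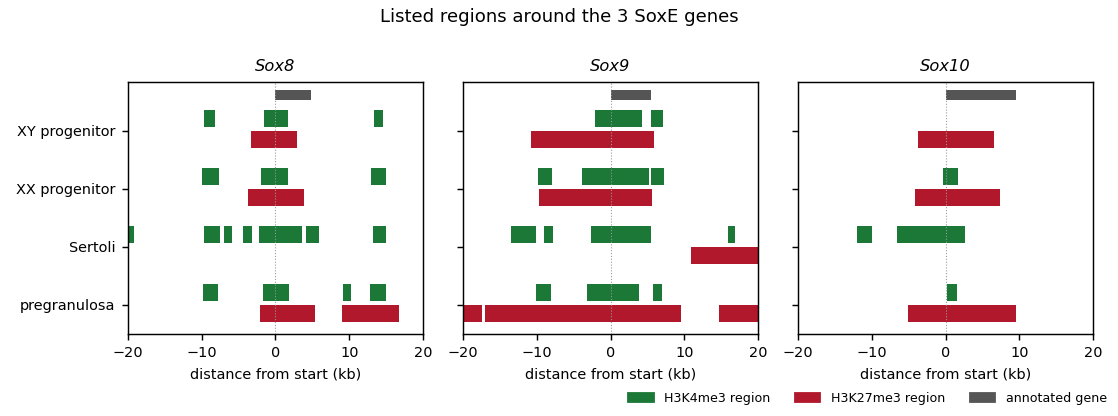
H3K4me3 (green) and H3K27me3 (red) regions within 20 kb of the TSS of Sox8, Sox9 and Sox10 in the 4 populations, with distance in kb in the direction of the gene (dark bar, annotated gene). No red bar touches the start of any of the 3 genes in Sertoli cells, the nearest beginning 10.9 kb downstream of Sox9, and Sox10 has its widest H3K4me3 region, 9.22 kb, there.

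The run of classes of Sox9 (bivalent in both progenitor populations and pregranulosa cells, H3K4me3-only in Sertoli cells) was that of 355 genes, 1.59% of all. Sox8 was 1 of them. Among the listed genes of the sex determination pathway, the other Sox genes and the markers, 6 more had it: Fgf9, the signal that sustains Sox9; Dmrt1, which guards the male fate; Dhh, a Sertoli signal to Leydig cells; Nr0b1, an orphan nuclear receptor; Erbb3; and Sox30. Fgf9 had H3K27me3 over 4001, 3044 and 4001 of the 4001 bases of its window in XY progenitor, XX progenitor and pregranulosa cells and over 0 in Sertoli cells. Dmrt1 had 4001, 4001, 4001 and 0 bases in the same order. Wnt4, which promotes the ovarian fate, was the reverse at E13.5, with 0 bases in pregranulosa cells and 4001 in the 3 other populations. The study already reports these states of Sox9, Fgf9, Dmrt1 and Wnt4 from the same data, so their likeness here is not separate evidence. Because the lists hold such genes by choice, the 6 are not a rate to set beside the 1.59%. Foxl2, a transcription factor of granulosa cells, had H3K27me3 over all 4001 bases in each of the 4 populations. The study describes Foxl2 as lying in a locus dense in H3K27me3. On a closer view it found the mark lost from the TSS and gene body in pregranulosa cells. Its own promoter windows of this size did not show that loss, and the window cover given here does not resolve it.

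The genes around Sox9 in the pathway were read by class. Of 7 targets of SOX9 and its partners all 7 were H3K4me3-only in Sertoli cells, against 4 in XY progenitor, 3 in XX progenitor and 3 in pregranulosa cells. Nr5a1 is both in this list and among the upstream factors. Of 6 testis signals and factors 5 were H3K4me3-only in Sertoli cells and 1 in each other population. Of 8 antagonists 0 were H3K4me3-only in XY progenitor, XX progenitor or Sertoli cells and 2 in pregranulosa cells. Among them Ctnnb1 had neither mark in any population. The classes are those of the 5′ end of each gene, and inner starts of these genes were not read. Of 10 upstream factors and partners 3, 2, 5 and 7 were H3K4me3-only in XY progenitor, XX progenitor, Sertoli and pregranulosa cells, and the others were bivalent. The share of all promoters with H3K4me3 alone was 43.8%, 43.6%, 46.2% and 45.9% in that order.

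The 1 Mb upstream of Sox9 is a gene desert known for long-range enhancers of the gonad, the cartilage and other tissues. In the annotation 5 genes overlap it, of which 1 is protein-coding (Gm11678). H3K4me3 regions numbered 10 in XY progenitor, 15 in XX progenitor, 20 in Sertoli and 17 in pregranulosa cells, and they covered 1.17%, 2.06%, 3.22% and 2.22% of the megabase. The whole chromosome had 21.0, 24.7, 22.1 and 25.2 regions per Mb in the same lists, covering 3.77%, 5.64%, 4.51% and 5.45%. Sertoli cells therefore had the most H3K4me3 regions upstream of Sox9, although their list held fewer regions per Mb of the chromosome than the XX progenitor and pregranulosa lists. With peaks within 1 kb joined, the lead shrank to 18 regions in Sertoli against 17 in pregranulosa cells. Without the region at the Sox9 promoter, H3K4me3 regions numbered 9, 14, 19 and 16 and covered 0.96%, 1.68%, 2.96% and 1.90%. H3K27me3 regions numbered 3, 2, 2 and 9 and covered 2.08%, 1.47%, 1.0% and 7.90%, where the chromosome had 6.33%, 5.80%, 10.8% and 7.82%. In the 3 other populations these values include the region at the Sox9 promoter. Without it the regions numbered 2, 1, 2 and 8 and covered 1.0%, 0.50%, 1.0% and 6.20%, so that Sertoli cells equalled XY progenitor cells and pregranulosa cells had the most. On the other side of Sox9 H3K27me3 covered 22.9% of the 1 Mb downstream in Sertoli cells, 20.9% in pregranulosa, 8.40% in XY progenitor and 7.26% in XX progenitor cells. Both Sertoli regions upstream were single peaks of 5.00 kb, the smallest size in the list, and neither was left when the lists were reduced to their widest regions. Both reductions left 5 H3K27me3 regions in pregranulosa cells, and keeping the widest 75% left 7 H3K4me3 regions in XX progenitor cells, below the 10 of XY progenitor cells.

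**Figure D2:**
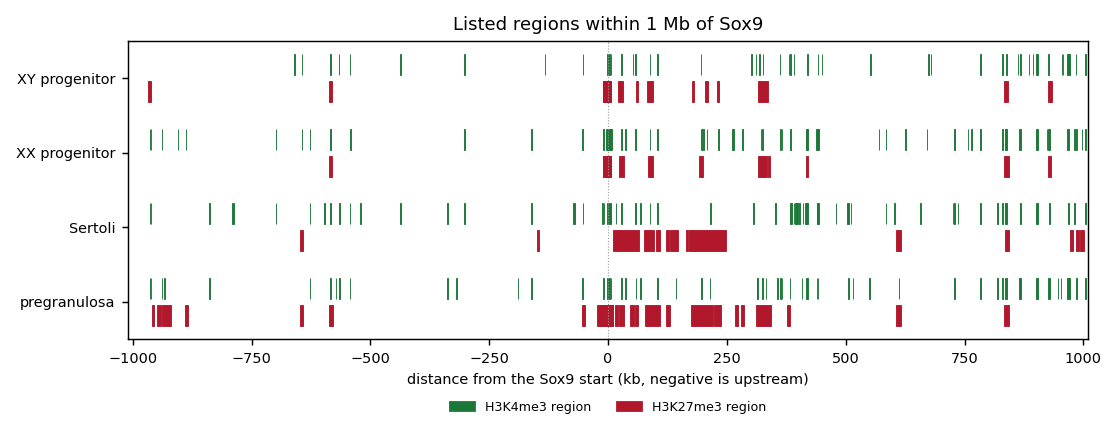
H3K4me3 (green) and H3K27me3 (red) regions from 1000 kb upstream to 1000 kb downstream of the Sox9 TSS in the 4 populations (distance in kb, narrow regions drawn with a thin outline so that they can be seen). Upstream the red bars number 2 in Sertoli and 9 in pregranulosa cells, while downstream both populations have broad red stretches that cover over 20% of the megabase.

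Joined across populations and with the promoter region left out, the H3K4me3 regions of the desert fell at 29 positions. Of these, 13 were listed in 1 population, 7 in 2, 6 in 3 and 3 in all 4. The 3 shared positions began 584.8, 543.4 and 54.3 kb upstream. The position at 584.8 kb also carried H3K27me3 in the progenitor populations and pregranulosa cells and not in Sertoli cells. In the far part of the desert 2 of the positions lay next to each other without overlap, 1 of XY progenitor cells (566.4 to 565.4 kb upstream) and 1 of Sertoli and pregranulosa cells (565.3 to 564.0 kb upstream).

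The 2 widest Sertoli regions of the desert lay near the gene. From 74.1 to 69.9 kb upstream a region of 4.12 kb was listed in Sertoli cells and in no other population. From 13.6 to 10.1 kb upstream a region of 3.49 kb was listed in Sertoli cells, and the pregranulosa region at 10.2 to 8.07 kb upstream met its edge. The progenitor populations had no H3K4me3 in that region, which in pregranulosa cells lay entirely within H3K27me3 (3487 bases), in XY progenitor cells was covered over 690 bases and in XX progenitor cells over none. This stretch upstream of Sox9 is where its testis-specific enhancer TES lies, and the pregranulosa cells carry a reporter with a mutated copy of the core of TES. Whether the Sox9-CFP reporter of the Sertoli cells holds TES sequence is not given in the sources used here. The part of reads from a reporter in the regions called here was not tested.

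The Sertoli region at 13.6 kb was searched on both strands for AACAAT, the letters bound by SRY and SOX proteins, and for CAAGGTCA, those bound by NR5A1. No match to 1 motif overlaps a match to the other here. Other Sertoli regions of the desert with little or no H3K4me3 in the other populations were searched too. The region at 13.6 kb held 7 matches to AACAAT and 2 to CAAGGTCA, the most of those searched. Of 286 tiles of the same length across the desert, 94.76% held AACAAT, 1.05% held it at least 7 times, 18.18% held CAAGGTCA and 3.15% held it at least 2 times. The region at 74.1 kb held 4 matches to AACAAT, a number reached by 40.08% of 242 tiles, and none to CAAGGTCA, which 21.07% of the tiles held. The remaining regions searched held 0 to 2 matches to AACAAT and 0 or 1 to CAAGGTCA. As many were held by at least 45.19% of tiles for AACAAT and at least 5.92% for CAAGGTCA. The stretch of the first region in which the 2 motifs come closest is shown (mm9 chr11:112632039-112632158, plus strand, 11.5 kb upstream), with the matches in capitals, both of them as reverse complements.
Upstream stretch: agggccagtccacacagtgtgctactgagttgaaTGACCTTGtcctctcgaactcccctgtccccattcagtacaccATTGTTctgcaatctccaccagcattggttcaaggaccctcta
A match describes the letters only and does not show binding.

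Sox4 and Sox11, SoxC factors of progenitor cells and developing neurons, had H3K4me3 and no H3K27me3 in any population. The Sox11 promoter, which had H3K4me3 alone in every list, is shown (mm9 chr12:28027575-28027774, minus strand, CpG in capitals) beside that of Sox17, which had both marks in every list (mm9 chr1:4486495-4486694, minus strand).
Sox11 promoter: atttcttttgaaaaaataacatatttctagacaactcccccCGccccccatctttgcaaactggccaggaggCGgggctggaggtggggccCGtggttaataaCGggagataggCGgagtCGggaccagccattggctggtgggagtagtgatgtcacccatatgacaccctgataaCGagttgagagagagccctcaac
Sox17 promoter: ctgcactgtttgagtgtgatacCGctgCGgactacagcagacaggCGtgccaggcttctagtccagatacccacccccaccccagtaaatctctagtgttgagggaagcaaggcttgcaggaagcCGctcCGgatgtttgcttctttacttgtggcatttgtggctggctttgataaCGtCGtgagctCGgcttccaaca
The stretches held 7 and 8 CpG dinucleotides, whereas the 1001 bases around the TSS held 109 at Sox11 and 25 at Sox17. H3K4me3 covered the whole body of Sox4 and of Sox11 in all 4 populations. The region at the TSS of Sox4 was 6.86 kb in XY progenitor, 8.43 kb in XX progenitor, 6.39 kb in Sertoli and 6.88 kb in pregranulosa cells. That of Sox11 was 8.10, 8.65, 7.19 and 7.54 kb in the same order. Both were among the widest, with 96.8% to 99.4% of marked promoters narrower in each list. H3K27me3 was absent from the 50 kb on either side of both genes in all 4 populations. Its nearest region lay 60.9 to 63.9 kb downstream of the Sox4 TSS in 3 populations and 57.6 kb upstream in Sertoli cells. Around Sox11 the nearest was 150.4 kb away in Sertoli, 150.9 kb in pregranulosa and 179.8 kb in XY progenitor cells, and 871.3 kb in XX progenitor cells.

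Sox5 and Sox6, SoxD factors that lack an activation domain of their own and work with SOX9 in cartilage, differed in H3K27me3. The window of Sox5 had H3K27me3 over 84.4% in XY progenitor and 77.8% in XX progenitor cells, in a single peak of 5.00 kb in each, the smallest the caller allowed. No H3K27me3 lay there in Sertoli or pregranulosa cells, and the nearest was 118.0 and 261.7 kb upstream. H3K4me3 covered 83.5%, 96.5%, 89.8% and 97.9% of the Sox5 window in XY progenitor, XX progenitor, Sertoli and pregranulosa cells, and its region was widest in pregranulosa cells, at 7.10 kb against 3.68 to 5.18 kb. Sox6 had H3K27me3 over the whole window in all 4 populations, in regions of 11.5 kb, 13.0 kb, 8.97 kb and 17.3 kb in the same order. The Sertoli region was the narrowest of the 4 and the pregranulosa region the widest. Both genes are long and have inner starts. The transcript at the 5′ end of Sox5, where its window was placed, is annotated as a retained intron. Starts within 500 bp of an earlier one were not read apart. A Sox5 start 572.4 kb inside the gene had H3K4me3 alone in all 4 populations, and those at 577.5 and 834.9 kb had neither mark. The transcript at 834.9 kb is annotated as protein-coding. At Sox6 the start at 7.70 kb was bivalent in all 4 populations, with H3K27me3 over 1285, 2782, 236 and 4001 of its 4001 bases, and those at 43.7 and 192.6 kb had neither mark. The start at 214.0 kb had neither mark in the progenitor populations, H3K4me3 alone in Sertoli cells and H3K27me3 alone in pregranulosa cells.

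Sox2, the SoxB1 factor of pluripotent, neural and primordial germ cells, had the widest H3K27me3 of the 10. Its region was 42.8 kb wide in XY progenitor, 42.2 kb in XX progenitor, 48.3 kb in Sertoli and 47.7 kb in pregranulosa cells, and covered the window and the 2457-bp gene in full. H3K4me3 sat inside it over 88.7%, 95.1%, 84.8% and 56.3% of the window. The region in pregranulosa cells was the narrowest of the 4, at 2.25 kb against 3.39 to 3.81 kb.

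Sox17 and Sox18, SoxF factors of endothelium and, for Sox17, endoderm, were bivalent in all 4 populations with H3K27me3 over the whole window and body. The Sox17 H3K27me3 region was 23.6 and 26.4 kb in XY and XX progenitor cells and 33.6 and 32.1 kb in Sertoli and pregranulosa cells. Its H3K4me3 region at the TSS window was narrow, at 1.27, 2.53, 1.51 and 1.53 kb in XY progenitor, XX progenitor, Sertoli and pregranulosa cells. In both E13.5 populations that region ended upstream of the TSS. A further H3K4me3 region inside the gene was 2.29 kb wide in XX progenitor, 1.74 kb in Sertoli and 2.08 kb in pregranulosa cells. None was listed there in XY progenitor cells. At Sox18 the H3K27me3 region was 9.78, 11.6, 9.10 and 10.2 kb and H3K4me3 covered 45.1%, 79.0%, 68.6% and 76.5% of the window. Of 10 endothelial markers 6 were bivalent in every population (Kdr, Tal1, Erg, Flt1, Sox17 and Sox18), beside 13.6% of all promoters. The other 4, Cdh5, Pecam1, Tek and Tie1, had neither mark, except Cdh5 in pregranulosa cells with H3K4me3 alone.

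**Figure D3:**
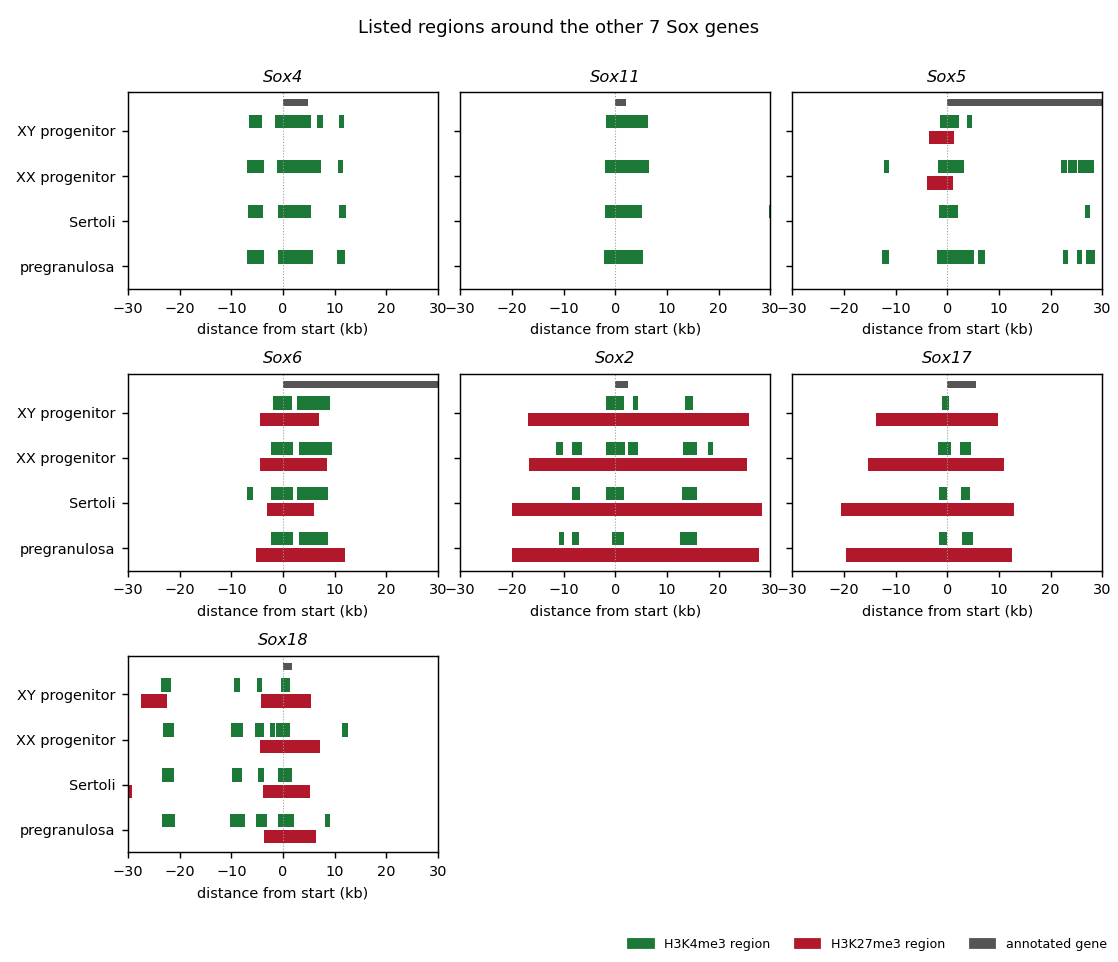
H3K4me3 (green) and H3K27me3 (red) regions within 30 kb of the TSS of the other 7 genes in the 4 populations, with distance in kb in the direction of the gene (dark bar, annotated gene). Sox4 and Sox11 have no red bar, Sox5 has 1 in each progenitor population, and the Sox2 bars of 42.2 to 48.3 kb are the longest.

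**Figure D4:**
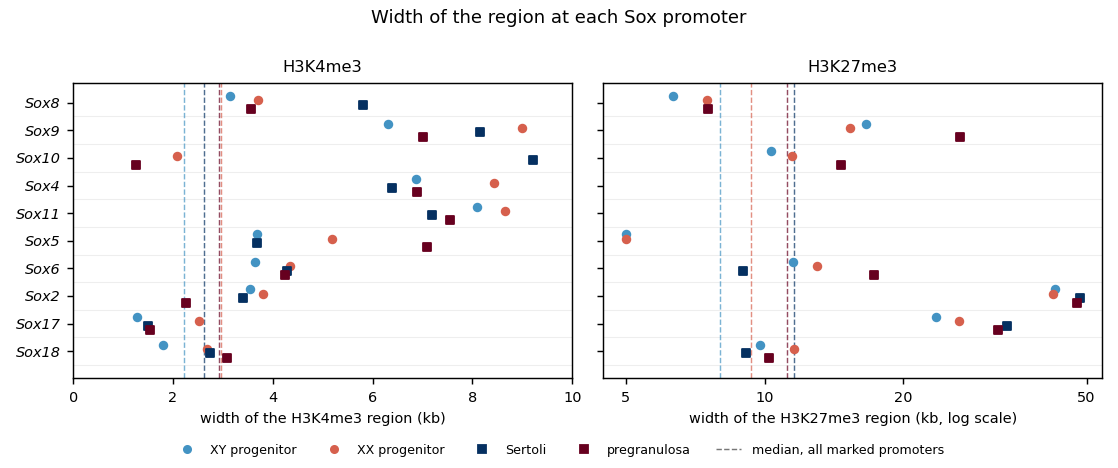
Width in kb of the H3K4me3 (linear axis) and H3K27me3 (log axis) region at each promoter, 1 point for each population with the mark (circles E10.5, squares E13.5) and the median over all marked promoters as dashed lines. Sox4, Sox5, Sox6, Sox8, Sox9 and Sox11 exceed the medians of 2.22 to 2.97 kb for H3K4me3 in every population, whereas Sox10 ranges from 1.25 to 9.22 kb.

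The 10 promoters were also compared in features of sequence and annotation. Over the 1001 bases around the TSS the ratio of observed to expected CpG was above the median of 22355 promoters (0.549) at 7 of the 10. It was 0.969 at Sox11, 0.841 at Sox2, 0.804 at Sox9, 0.796 at Sox4, 0.771 at Sox5, 0.770 at Sox18 and 0.686 at Sox8. It was lower at Sox6 (0.516), Sox17 (0.414) and Sox10 (0.325). By number of CpG the order differed, with 24 at Sox6, 25 at Sox17 and 29 at Sox10. Each SoxE gene had a start on the opposite strand within 2 kb upstream, 230 bp from Sox8 (2810468N07Rik), 248 bp from Sox9 (BC006965) and 1551 bp from Sox10 (Gm10863), and no other of the 10 did. Of all genes 10.8% had such a start. BC006965 runs 118.3 kb into the desert. The marks at these 3 windows could belong to either gene of the pair, and the lists do not separate them.

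Of the 10 Sox genes listed outside this set, 9 were in the annotation and 4 of these were bivalent in all 4 populations (Sox3, Sox7, Sox14 and Sox21). Sox12 and Sox13 had H3K4me3 alone throughout, and Sox30 had the classes of Sox9. Sry, on the Y chromosome, had H3K4me3 in Sertoli cells alone and no mark in XY progenitor cells. It also had none in the XX populations, which lack the gene. The XY progenitor H3K4me3 list was called from 10.2 M tags, against 31.1 M for Sertoli cells. The part of depth in the missing call at Sry was not tested.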

How the data were processed

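H3K4me3, H3K27me3 and H3 ChIP-seq was performed in 2 replicates of 4 populations. Per the study's methods and the submitters' processing notes, reads were trimmed with Trim Galore, aligned to mm9 with Bowtie and handled with SAMtools, and peaks were called with HOMER findPeaks in histone style against H3. The methods describe calls per replicate, whereas the headers name joined replicates. Per the file headers of 6 lists the peak size was 1000 bp for H3K4me3 and 5000 bp for H3K27me3, with 4-fold enrichment over H3 and a Poisson p-value of 1e-04, whereas the 2 pregranulosa lists state no settings. Drosophila carrier chromatin was added to each precipitation. Versions are not given in the sources used here. The deposited score is the same for every peak and was not used as a level, and the deposited positions are the other values used.

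Overlapping peaks of a list were joined into regions, since 3 H3K27me3 lists hold overlapping windows and the pregranulosa lists were deposited joined. Genes, starts and sequence came from GENCODE M1 and mm9. A promoter was the 5′ end of the gene ± 2 kb (4001 bp), marked by an overlap of at least 1 bp. Every one of the 10 Sox genes is named, and of other lists counts, with values for Foxl2, Dmrt1, Fgf9 and Wnt4. The genes and lists were chosen with earlier results of these data known. Shares over all 22367 protein-coding genes give the background. Exact (Clopper-Pearson) 95% intervals were computed for shares and cover counting error only. As a check of the interval code only, the steps recovered 100% of 1000 promoter classes simulated with regions placed over the TSS. This does not measure the accuracy of the calls. Some list genes and 1 promoter sequence are not reported here. The alternatives are listed in the closing section. Python 3.11.15, NumPy 2.4.6, SciPy 1.17.1 and matplotlib 3.10.9 were used.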

Additional observations from a re-analysis of the deposited data

Results flagged for a closer look

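At 4 combinations of gene and mark the cover of the gene body differed in opposite directions in the 2 lineages, by at least 5 percentage points in each. H3K27me3 over Sox8 changed by -62.17 points from XY progenitor to Sertoli cells (62.17% to 0%) and by 19.85 points from XX progenitor to pregranulosa cells (80.15% to 100%). H3K27me3 over Sox10 changed by -69.12 and 22.42 points. H3K4me3 over Sox9 changed by 22.00 points in the XY lineage and by -24.72 points in the XX lineage. H3K4me3 over Sox17 changed by 26.76 and -15.90 points. In Sertoli and pregranulosa cells this cover came from a region inside the gene, apart from the one at the TSS. The lists pool replicates, so these differences between lineages were not tested, and the XY progenitor lists were called from fewer tags than the XX progenitor and Sertoli lists.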

How the results depend on the processing

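Other settings asked for an overlap of 500 bp, narrowed the window to 1 kb on each side of the TSS, kept only the widest 75% of regions, cut each list of a mark to the size of the smallest (37849 for H3K4me3, 9309 for H3K27me3), took every annotated start, or joined peaks within 1 kb. Leaving out the 2 kb next to the TSS was tried for the desert. Of 72 recomputed counts over the 10 genes, 72 stayed within 1.5 times and 68 were equal. The other 4 came from the widest 75% of regions, under which Sox5 lacked H3K27me3 in both progenitor populations (7 genes with H3K27me3 in each, and 6 and 7 bivalent in XY and XX). Leaving out the region at the Sox9 promoter was added after seeing the data. Of 40 recomputed region counts upstream of Sox9, 33 stayed within 1.5 times. With the widest 75%, H3K4me3 regions numbered 7 in XX progenitor cells, and H3K27me3 regions 1 in XX progenitor, 0 in Sertoli and 5 in pregranulosa cells. Without the region at the Sox9 promoter, XX progenitor cells had 1 H3K27me3 region. With lists reduced to the shortest, H3K27me3 regions numbered 0 in Sertoli and 5 in pregranulosa cells. Percentages covered were counted as higher or lower only outside the exact binomial interval of the main value, with each base as a separate trial. By this rule, of 80 percentages of a TSS window, 3 were higher with peaks joined and 3 lower with the widest 75%. Of 80 over gene bodies 7 were higher and 12 lower. Smaller changes were counted as the same. With peaks joined, H3K4me3 over the Sox2 window in XX progenitor cells rose from 95.10% to 95.68% and was not counted. Bases within a peak are not independent, so these counts are not a test. No paired analysis was possible because each list joins both replicates. Leaving out a replicate was not possible for the same reason. The score is constant, so no stricter threshold on strength could be applied, and a mark absent from a list may lie below what its depth could show.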

Other observations

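Sox5, Sox6 and Sox9 act together in cartilage, and 6 cartilage genes that include them were read by class. In both progenitor populations 5 of the 6 were bivalent and 0 were H3K4me3-only. In Sertoli cells 2 were H3K4me3-only, 3 bivalent and 1 had H3K27me3 alone, and in pregranulosa cells the numbers were 1, 4 and 1. Of 5 genes of gonadal somatic cells (Nr5a1, Wt1, Gata4, Lhx9 and Emx2), all 5 were bivalent in both progenitor populations, 3 were H3K4me3-only in Sertoli cells and 5 in pregranulosa cells. Of 7 interstitial and Leydig markers 2, 4, 2 and 3 were H3K4me3-only in XY progenitor, XX progenitor, Sertoli and pregranulosa lists. Of 7 germ cell markers, Sox2 included, 1, 1, 1 and 2 were. Over all promoters the H3K4me3-only share was 43.8%, 43.6%, 46.2% and 45.9% in the same order. The bivalent share was 20.4%, 22.4%, 18.7% and 20.4%.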
